A study of Mus musculus with 15 samples.

Results

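Cxcl12, Kitl, Angpt1, Il7, Vcam1, Lepr, Foxc1 and Ebf3 are the genes by which the supporting stroma of bone marrow is usually described. They were chosen by name, as niche ligands and markers of CXCL12-abundant stromal cells, by a rule that uses no measured value. Earlier results of these data were known when the choice was made. All 8 were found once each among the 55335 gene IDs of the deposited table. None of the 7 that passed the filter on low values was called in any comparison of groups. With group means removed they lay high or low together over the 15 libraries. This was weaker without 3 libraries that stand apart, where 0 of 21 pairs passed a permutation test against 15 with all libraries. Some pairs moved in opposite directions in sham bones alone.

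Blood stem cells and lymphoid precursors are kept in the marrow by reticular stromal cells that sit along its sinusoidal vessels. These cells secrete the chemokine CXCL12, which holds stem cells and B cell precursors in place through the receptor CXCR4, and stem cell factor, encoded by Kitl, which sustains stem cells through KIT. They also carry the leptin receptor, are kept in their state by the transcription factors FOXC1 and EBF3, and can give rise to bone and fat cells.

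RNA was taken from the subchondral bone of the tibia, the bone under the joint cartilage, of 15 male mice in 3 groups of 5, operated on at 8 weeks of age and examined 8 weeks later. C57BL/6J wild-type mice had either a sham operation, which opened the joint capsule and left the ligament intact, or DMM, the surgical model of osteoarthritis named for destabilizing the medial meniscus, where the medial meniscotibial ligament is cut. The remaining group was Dmp1-Cre;Pvalb fl/fl, a conditional knockout (cKO) of parvalbumin, and had DMM. Dmp1-Cre is the driver used to target osteocytes, the cells embedded in bone. Sham-operated knockout mice were not analysed here, so that genotype and the response to DMM cannot be told apart in the knockout group. Whole bone was ground with its marrow, so fewer stromal cells and less RNA per cell cannot be told apart for any gene below.

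Levels are FPKM, fragments scaled by transcript length and library size, as deposited. The number of reads behind them was unknown. Their relative depth could be read from low genes, where 1 read in each of 2 libraries gives the same FPKM ratio for every such gene, and all 105 library pairs gave ratios within 0.01 log2 of 1 common solution. The deepest library, DMM wild-type replicate 4, had 1.66 times the depth of the shallowest, DMM Pvalb cKO replicate 2. FPKM summed to between 375453 and 468423 per library, and 12592 to 13510 gene IDs reached 1 FPKM. The 12 osteoblast and osteocyte markers were all above 0 in every library and summed to 1723 to 4195 FPKM, and 2 hemoglobin genes held 5.81% to 17.4% of all FPKM, so both bone and marrow were present. The targeted gene Pvalb, which is abundant in fast muscle, was 15.8 to 490 FPKM in sham, 33.0 to 375 in DMM wild-type and 23.7 to 166 in the libraries labelled cKO, and its presence in all 5 of the latter leaves the genotype labels unchecked. The fast muscle markers summed to 113 to 4392 FPKM and differed widely within every group.

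DMM wild-type replicate 3 and DMM Pvalb cKO replicates 1 and 4 stood apart from the other 12 libraries on the first principal component of all genes, which held 32.2% of the variance. Of the 8 niche genes, 7, 8 and 6 were below their median over all libraries in these 3, and 1 to 6 in the others, with 6 also in sham replicate 1 and DMM wild-type replicate 4. The mean log2 deviation of the 8 was -0.35, -0.54 and -0.20 in the 3 and -0.15 to 0.17 in the others. In cKO replicate 4 Kitl and Vcam1 lay within 0.01 log2 of their medians and Il7 above its own. Longer transcripts were also lower in them. The median log2 deviation of the longest 20% of genes (at least 4970 bases) minus that of the shortest 20% (at most 1712 bases) was -0.60, -0.46 and -0.57 in these libraries and -0.11 to 0.25 in the other 12. Cxcl12, Kitl, Lepr, Foxc1 and Ebf3 are among those longest genes, with longest coding transcripts of 4994 to 5844 bases. Whether transcript length, RNA quality or cell content set the niche genes apart in these libraries was not tested. Differences of the niche genes, and counts that differ, are given with and without them. Their relative depths of 1.57, 1.39 and 1.34 times the shallowest lay within the range of the others. No sham library was among the 3, so leaving out libraries in which most niche genes were low by itself raises the DMM means of those genes against sham.

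The promoters of Cxcl12, Lepr, Kitl and Ebf3 are shown because Cxcl12 with Lepr, and Kitl with Ebf3, were the pairs that deviated most alike across the bones. Each line gives the 250 bases before a transcription start listed by RefSeq for build GRCm38.p6, which is not the build of the deposited values. They lie at chr6:117168285-117168534 (plus strand) for Cxcl12, chr4:101717157-101717406 and chr4:101717656-101717905 (plus strand) for both listed starts of Lepr, chr10:100015571-100015820 (plus strand) for Kitl and chr7:137314446-137314695 (minus strand) for Ebf3. Capitals mark the GC box GGGCGG on either strand, overlapping matches included, and in Kitl also the TATA box TATAAA.
Cxcl12: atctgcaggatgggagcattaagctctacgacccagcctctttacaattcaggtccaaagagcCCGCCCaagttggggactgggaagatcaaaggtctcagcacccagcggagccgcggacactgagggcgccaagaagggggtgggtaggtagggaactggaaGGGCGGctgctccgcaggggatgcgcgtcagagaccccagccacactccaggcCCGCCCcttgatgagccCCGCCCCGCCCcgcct
Lepr, first start: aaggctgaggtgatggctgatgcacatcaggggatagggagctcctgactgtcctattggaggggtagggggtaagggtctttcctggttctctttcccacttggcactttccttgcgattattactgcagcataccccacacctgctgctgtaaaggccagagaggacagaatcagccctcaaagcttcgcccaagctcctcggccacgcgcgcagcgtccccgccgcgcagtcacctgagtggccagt
Lepr, second start: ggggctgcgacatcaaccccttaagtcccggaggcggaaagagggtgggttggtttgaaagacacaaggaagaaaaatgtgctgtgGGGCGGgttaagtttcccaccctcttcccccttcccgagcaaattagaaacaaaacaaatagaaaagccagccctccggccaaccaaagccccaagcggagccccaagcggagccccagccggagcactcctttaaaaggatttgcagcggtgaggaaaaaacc
Kitl: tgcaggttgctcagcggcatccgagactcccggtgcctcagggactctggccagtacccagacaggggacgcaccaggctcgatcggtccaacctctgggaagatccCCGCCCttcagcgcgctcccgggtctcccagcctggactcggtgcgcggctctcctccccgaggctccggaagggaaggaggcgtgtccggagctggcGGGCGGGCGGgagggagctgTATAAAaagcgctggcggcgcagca
Ebf3: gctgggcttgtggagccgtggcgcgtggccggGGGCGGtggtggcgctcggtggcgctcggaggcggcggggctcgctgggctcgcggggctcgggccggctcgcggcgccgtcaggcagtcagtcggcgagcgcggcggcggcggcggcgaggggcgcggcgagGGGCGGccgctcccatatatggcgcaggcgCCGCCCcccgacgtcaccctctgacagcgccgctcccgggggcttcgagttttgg
The Cxcl12 promoter held 5 GC boxes, Kitl and Ebf3 held 3 each, and of the Lepr starts only the second held a GC box, a single match. With Foxc1, which had 1, the GC box was present at 5 of the 6 start sites of these 5 genes and in 32.7% of all 32851 promoters in the table. The TATA box was present at Kitl alone of the 6 and in 12.4% of all promoters. The forkhead core TAAACA, the kind of motif that FOXC1 binds, and the EBF motif, TCCC and GGGA with 2 bases between them, were in none of the 6, against 12.0% and 0.8% of all promoters, both strands searched each time. The 6 windows were 54.8% to 80.0% G and C, where the median promoter was 52.4%.

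The niche genes spanned a wide range of abundance, and their order was nearly the same in every bone. Among the 13653 genes that reached 1 FPKM in 5 or more libraries, Cxcl12 ranked between 273 and 687 in all 15 libraries. Vcam1 was always above 86.5% of these genes, Kitl and Lepr lay near the middle or above it, and Ebf3, the lowest that passed the filter, was above 2.35% to 31.7% of them. By the mean of sham bones, in FPKM, the order was Cxcl12 (103), Vcam1 (44.6), Kitl (9.23), Lepr (8.49), Angpt1 (5.61), Foxc1 (3.89), Ebf3 (2.17) and Il7 (0.383). The 5 sham values of Kitl and Lepr overlapped, with Kitl the higher in 11 of 15 libraries, and those of Angpt1 and Foxc1 overlapped, with Angpt1 the higher in 12 of 15. All other neighbours in this order were separate in sham bones and kept their order in 15 of 15 libraries. Il7 stayed under 1 FPKM in every library and was the only member that did not pass the filter, so its tests come from a fit with no filter on low values.

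**Figure D1:**
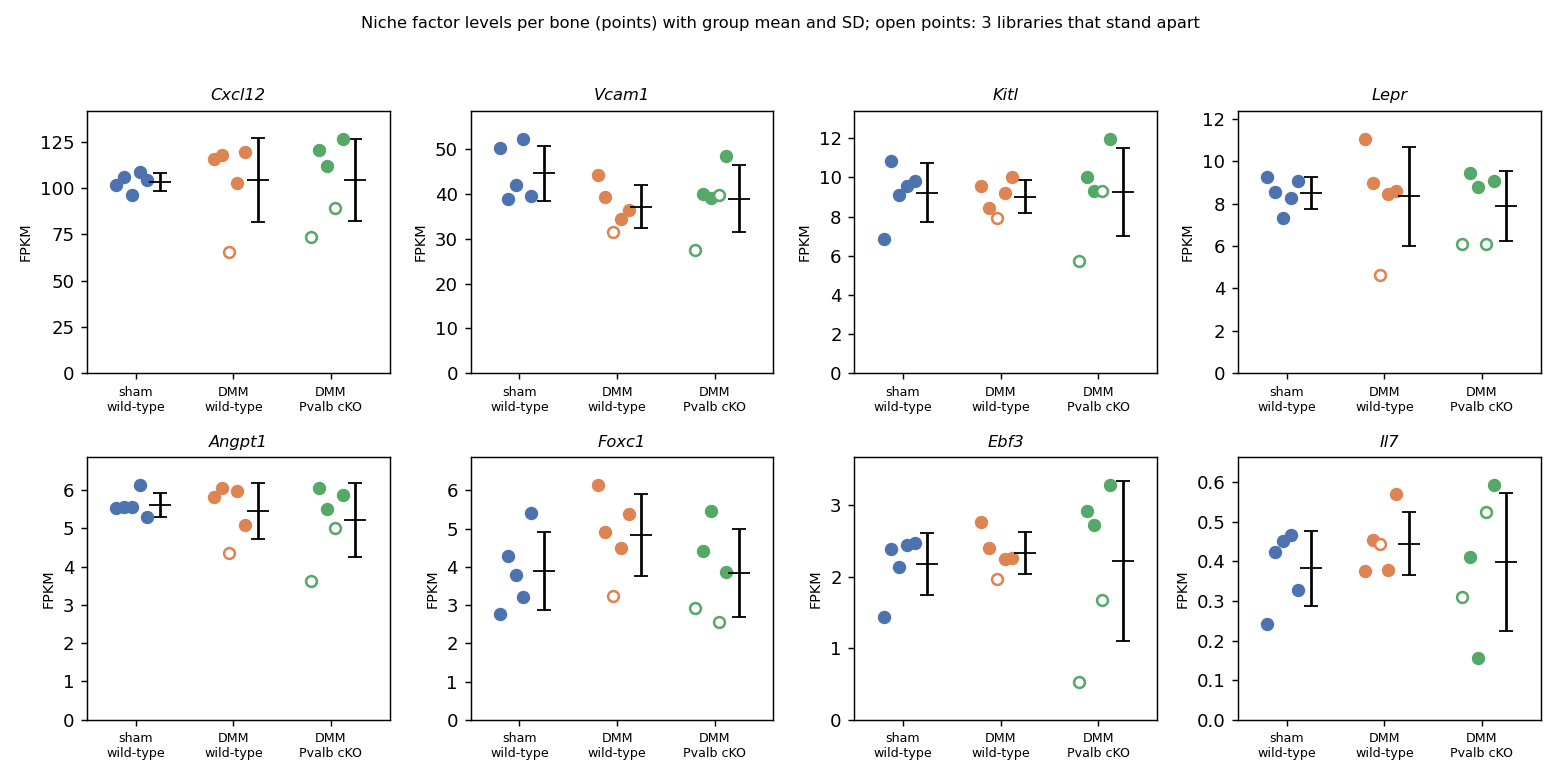
Level of each niche gene in FPKM (vertical axes from 0) in the 5 bones of each group, with the group mean and SD in black beside the points and the 3 libraries that stand apart drawn open. Groups overlap for all 8 genes, and for Cxcl12 and Lepr the open points are the 3 lowest of the 15.

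Cxcl12 encodes the chemokine that defines these stromal cells. In FPKM it was 101, 106, 96.2, 108 and 105 in sham replicates 1 to 5. After DMM the wild-type replicates held 115, 118, 65.2, 103 and 119, and the Pvalb cKO replicates held 73.7, 120, 112, 89.0 and 126. Sham bones were closely grouped. In each DMM group 3 bones lay above all sham bones, and the libraries that stand apart lay below all of them. The means were 103 ± 4.72, 104 ± 22.7 and 104 ± 22.2 FPKM (SD, n = 5 each). The log2 difference was -0.02 between DMM and sham wild-type (SE 0.171, 95% interval -0.39 to 0.34), 0.01 between cKO and wild-type after DMM (-0.36 to 0.37) and -0.01 between cKO and sham (-0.38 to 0.35). None was called at a limma adjusted p under 0.05 (adjusted p = 0.983, 0.997 and 0.972). Without the 3 libraries the DMM wild-type mean was 114 ± 7.67 FPKM (n = 4) and the cKO mean 119 ± 7.43 (n = 3). The 3 remaining cKO bones, at 112 to 126 FPKM, were above every sham bone. The libraries left out held the 3 lowest Cxcl12 values, so this rise follows in part from leaving them out. The share of all genes that separate in groups of 3 and 5 was not computed. The log2 difference between cKO and sham was then 0.21 (95% interval 0.06 to 0.36, limma unadjusted p = 0.0118, adjusted p = 0.656), and that between DMM and sham wild-type 0.14 (adjusted p = 0.583).

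Kitl encodes stem cell factor, which exists as a secreted and a membrane-bound form. It was 6.83, 10.9, 9.08, 9.56 and 9.80 FPKM in sham replicates 1 to 5, 9.54, 8.42, 7.93, 9.18 and 10.0 in DMM wild-type, and 5.75, 10.0, 9.32, 9.31 and 12.0 in DMM Pvalb cKO. The groups overlapped throughout, and the lowest bone of the sham group and of the cKO group was replicate 1 in each. The means of 9.23 ± 1.49, 9.02 ± 0.850 and 9.27 ± 2.25 FPKM (SD, n = 5) differed by less than the SD of any group. Its 95% intervals for the log2 difference were -0.34 to 0.30 for DMM against sham wild-type, -0.31 to 0.33 for cKO against wild-type DMM and -0.33 to 0.31 for cKO against sham. The log2 differences of Kitl in the 12 libraries were 0.021, 0.15 and 0.17 in that order (limma adjusted p = 0.984, 0.975 and 0.811), where with all 15 they were -0.020, 0.0080 and -0.012.

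Angpt1 encodes angiopoietin-1, a ligand of the receptor TIE2 on vessels. It had the tightest sham group after Cxcl12, at 5.53, 5.55, 5.54, 6.12 and 5.29 FPKM in replicates 1 to 5. After DMM the wild-type bones held 5.83, 6.06, 4.35, 5.97 and 5.09 FPKM, and the cKO bones 3.63, 6.04, 5.51, 5.00 and 5.86 FPKM. The low values of each DMM group were again mostly in the libraries that stand apart, and the groups overlapped. The log2 differences were -0.04 for DMM against sham wild-type, -0.07 for cKO against wild-type DMM and -0.10 for cKO against sham (limma adjusted p = 0.951, 0.935 and 0.623), and without the 3 libraries they were 0.03, 0.02 and 0.04.

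Il7 encodes interleukin-7, the cytokine that B cell precursors need. It was 0.242 to 0.466 FPKM in sham, 0.376 to 0.571 in DMM wild-type and 0.157 to 0.592 in DMM Pvalb cKO bones. Means of 0.383 ± 0.0953, 0.445 ± 0.0796 and 0.399 ± 0.173 FPKM (SD, n = 5) overlapped within these SDs. At such levels a difference on the log2(FPKM + 1) scale understates the ratio, and the log2 differences of 0.06, -0.05 and 0.01 had limma adjusted p = 0.900, 0.926 and 1.00. In the 12 libraries the differences of Il7 were 0.064, -0.069 and -0.0054.

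Vcam1 encodes an adhesion molecule that holds blood cells by the integrin made of ITGA4 and ITGB1, and besides stroma it is made by marrow macrophages and endothelium. It was 50.2, 39.0, 41.9, 52.2 and 39.6 FPKM in sham replicates 1 to 5 and 44.3, 39.2, 31.5, 34.4 and 36.4 in DMM wild-type. In DMM Pvalb cKO it was 27.4, 40.0, 39.1, 39.7 and 48.5 FPKM. After DMM 3 of 5 wild-type bones lay below all sham bones, while the other 2 lay inside the sham range. The log2 difference of -0.25 between DMM and sham wild-type (SE 0.138, 95% interval -0.55 to 0.04) had the smallest p among these genes in that comparison and was not called (limma adjusted p = 0.834). It was -0.20 without the 3 libraries. Against sham the cKO bones differed by -0.20 (adjusted p = 0.491), and by -0.06 without the 3 libraries.

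Lepr encodes the receptor of leptin, a hormone of fat cells, and marks most cells of this stroma. It was 9.25, 8.55, 7.33, 8.25 and 9.06 FPKM in sham replicates 1 to 5 and 11.0, 8.97, 4.63, 8.45 and 8.57 in DMM wild-type. In DMM Pvalb cKO it was 6.11, 9.46, 8.78, 6.11 and 9.04 FPKM. The libraries that stand apart held the 3 lowest values of the 15, and every other DMM value but that of DMM wild-type replicate 1 and of cKO replicate 2 lay inside the sham range. The log2 differences were -0.06, -0.05 and -0.11 in the order of comparisons above, all with 95% intervals between -0.48 and 0.33, and without the 3 libraries they were 0.11, -0.02 and 0.09. Its ligand Lep stayed at 0.00926 to 0.287 FPKM in all 15 libraries and was too low for the main test.

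Foxc1 encodes a forkhead transcription factor needed to form the CXCL12-abundant cells. It was 2.77, 4.29, 3.79, 3.20 and 5.41 FPKM in sham replicates 1 to 5 and 6.12, 4.92, 3.25, 4.48 and 5.39 in DMM wild-type. In DMM Pvalb cKO it was 2.92, 4.40, 5.45, 2.57 and 3.87 FPKM. In wild-type mice 4 of 5 DMM bones were above the sham mean of 3.89 FPKM, and the groups overlapped. The log2 difference between DMM and sham wild-type was 0.26 (95% interval -0.13 to 0.65, limma adjusted p = 0.917) and that between cKO and wild-type after DMM was -0.28 (-0.67 to 0.11, adjusted p = 0.935). Without the 3 libraries they were 0.37 (95% interval 0.04 to 0.69, unadjusted p = 0.0296, adjusted p = 0.513) and -0.16.

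Ebf3 encodes a second factor that keeps the stroma from turning into bone. It was 1.44, 2.39, 2.13, 2.45 and 2.47 FPKM in sham replicates 1 to 5 and 2.77, 2.41, 1.97, 2.26 and 2.26 in DMM wild-type. In DMM Pvalb cKO it was 0.526, 2.92, 2.72, 1.67 and 3.28 FPKM. The cKO group held both the lowest and the highest bones of all 15, and the widest SD on the FPKM scale of the 3 groups. The log2 differences were 0.08, -0.13 and -0.06 (limma adjusted p = 0.953, 0.935 and 0.906). With the 3 libraries left out the 3 remaining cKO bones, at 2.72 to 3.28 FPKM, were above all sham bones. The share of all genes that separate in groups this small was not computed. The log2 difference of Ebf3 was then 0.33 (limma unadjusted p = 0.0132, adjusted p = 0.656).

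**Figure D2:**
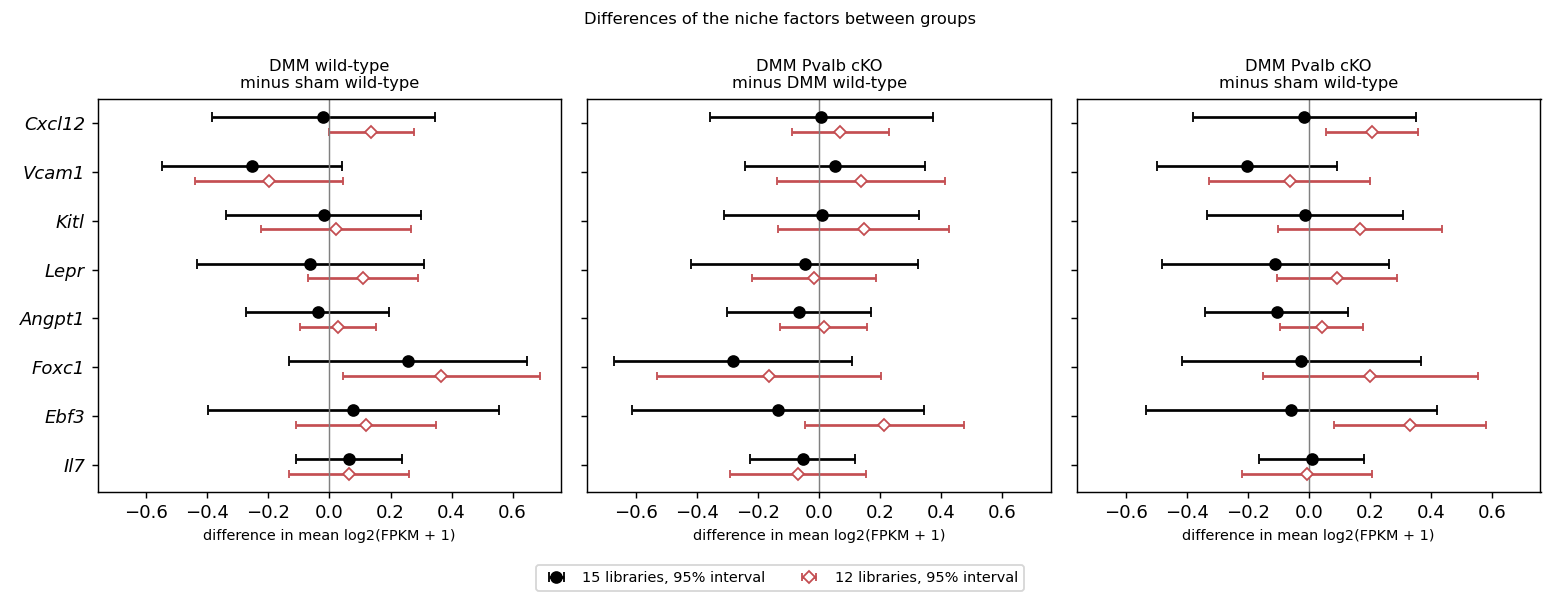
Differences of mean log2(FPKM + 1) for each niche gene in the 3 comparisons, with 95% intervals from the fit of all 15 libraries (black) and of 12 libraries (red, open). All black intervals include 0. Leaving out the 3 libraries narrowed most intervals and moved Cxcl12 and Ebf3 in cKO against sham to 0.21 and 0.33.

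Counted together, these genes gave no call. In DMM against sham wild-type 0 of 7 were called where 0% of all 13653 genes were, the smallest adjusted p of any gene being 0.142. At an unadjusted p under 0.05 the counts were 0 of 7 and 6.93% of all genes, the groups of 5 were separate for 0 of 7 and 1.79%, and 2 of 7 log2 differences were above 0 where 50.4% of all were. In cKO against wild-type after DMM 0 of 7 were called against 0.00732% of all genes (1 gene, AC117239.2), with 0 of 7 at an unadjusted p under 0.05 against 3.25%, 0 of 7 with separate groups against 0.381%, and 3 of 7 above 0 against 45.1%. In cKO against sham 0 of 7 were called against 0.0293% (4 genes, all higher), with 0 of 7 at an unadjusted p under 0.05 against 10.5%, 0 of 7 with separate groups against 2.26%, and 0 of 7 above 0 against 47.9%. The last comparison shares its sham bones with the first and its cKO bones with the second, so the 3 are not independent. Median log2 differences of the 7 were -0.021, -0.047 and -0.057, beside 0.002, -0.017 and -0.010 for all genes. Without the 3 libraries these medians were 0.109, 0.070 and 0.168, beside 0.017, -0.018 and 0.004, and 0 were called. Above 0 there were then 6, 5 and 6 of the 7 genes, where 57%, 43.6% and 51.4% of all 13534 genes tested were. At an unadjusted p under 0.05 there were 1, 0 and 2 of 7, beside 8.73%, 4.24% and 6.95% of all genes, and 0, 1 and 7 of all genes were called. In the fit of all 15 libraries the 95% interval lay within 0.5 log2 units either side of 0 for 4, 5 and 6 of 7, where this held for 71.4%, 72.5% and 64.8% of all genes.

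The receptors that read these ligands, with their partners, gave 0 calls among 14 tested of 15 genes in each of the 3 comparisons. Cxcr4, the CXCL12 receptor of blood cells, was 120 ± 10.9 FPKM in sham, 107 ± 16.1 in DMM wild-type and 110 ± 8.50 in DMM Pvalb cKO bones (SD, n = 5). Kit, the receptor of stem cell factor, was 6.48 ± 0.479, 6.15 ± 0.934 and 5.84 ± 0.456 FPKM, and Tek, which encodes TIE2, was 2.92 ± 0.867, 3.07 ± 0.255 and 3.00 ± 0.428. None of the 3 receptors differed between groups by more than the larger SD of the pair, except Kit between sham and cKO (log2 difference -0.13, limma adjusted p = 0.499). In the 12 libraries the log2 differences for DMM against sham wild-type, cKO against wild-type DMM and cKO against sham were -0.12, -0.023 and -0.14 for Cxcr4, 0.013, -0.11 and -0.099 for Kit, and 0.11, 0.024 and 0.14 for Tek.

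Ackr3 was the receptor gene with the smallest p. It encodes an atypical receptor that takes up CXCL12 and clears it. It was 4.68, 6.79, 5.20, 3.10 and 8.85 FPKM in sham replicates 1 to 5, 13.8, 12.8, 13.8, 5.96 and 12.1 in DMM wild-type, and 8.06, 6.50, 16.6, 10.3 and 9.07 in DMM Pvalb cKO. In DMM wild-type 4 of 5 bones lay above all sham bones, and replicate 4 lay among them. The log2 difference between DMM and sham wild-type was 0.93 (SE 0.272, 95% interval 0.35 to 1.51, unadjusted p = 0.00405), and it was not called over all genes (limma adjusted p = 0.307). When the model also held the mean log2 level of the fast muscle list, the difference in Ackr3 was 1.10 and was called (adjusted p = 0.0143), as were 254 genes in all. Without the 3 libraries it was 0.86 (adjusted p = 0.470). Between cKO and sham it was 0.72 (adjusted p = 0.469). Fibroblast markers, which summed to 154 to 509 FPKM in sham, 451 to 962 in DMM wild-type and 378 to 1380 in cKO bones, were higher in the same groups, and their part in the Ackr3 values was not tested.

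Il7r and Itga4 were lower in the cKO group than in sham without passing the test. Il7r, the receptor of interleukin-7 on lymphoid precursors, was 9.04, 7.83, 5.84, 8.94 and 4.48 FPKM in sham replicates 1 to 5 and 6.23, 6.64, 3.03, 5.45 and 5.70 in DMM wild-type. In DMM Pvalb cKO it was 1.76, 6.09, 5.27, 3.34 and 6.58 FPKM. The lowest bones of each DMM group were those that stand apart, and the log2 difference of -0.61 between cKO and sham (limma adjusted p = 0.469) was -0.20 without them (adjusted p = 0.842). Itga4, which encodes the integrin chain that binds VCAM1, was 12.4 to 19.1 FPKM in sham, 4.57 to 17.6 in DMM wild-type and 6.24 to 14.2 in cKO bones. Its log2 difference between cKO and sham was -0.60 (adjusted p = 0.469), and -0.25 without the 3 libraries. The B cell precursor markers had a median log2 difference of -0.227 in that comparison, with 11 of 12 below 0, and of -0.029 without the 3 libraries.

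**Figure D3:**
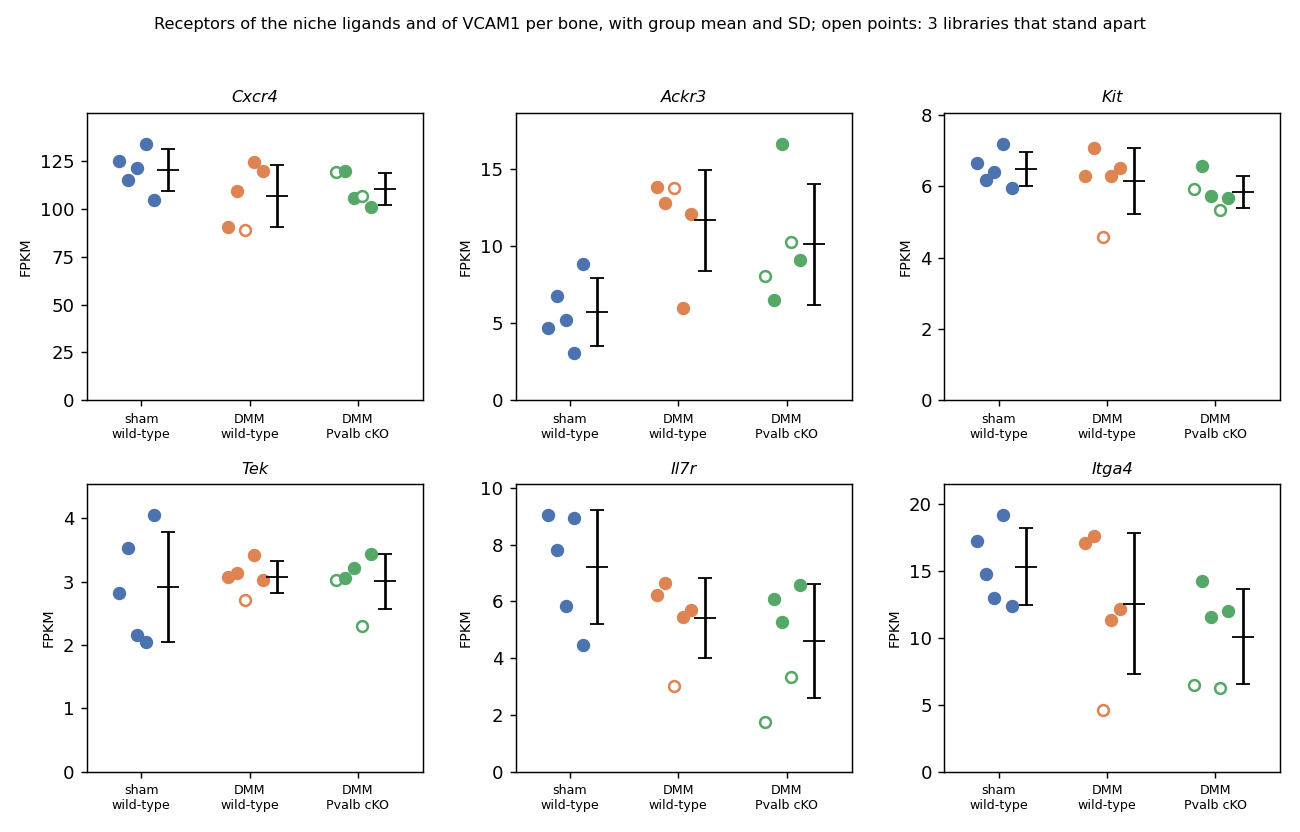
Level in FPKM (vertical axes from 0) of the receptors of the niche ligands and of the integrin chain that binds VCAM1 in the 5 bones of each group, with group mean and SD, and the 3 libraries that stand apart drawn open. For Ackr3, 4 of 5 DMM wild-type points lie above the sham points, and for Itga4 the open points are the 3 lowest of the 15.

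Other markers of the same stroma mostly had higher values after DMM, though 0 of them were called. Of the 14 tested genes on this list of 16, 12 had a log2 difference above 0 between DMM and sham wild-type bones, where 50.4% of all genes did. The median of the 14 was 0.267, and the groups were separate for 2 of 14 and 1.79% of all genes. The 2 below 0 were Chrdl1 (-0.23) and Grem1 (-0.16). Between cKO and sham 11 of 14 were above 0 (47.9% of all genes), and between cKO and wild-type after DMM 3 of 14 (45.1%). Igfbp4, which encodes a binding protein of insulin-like growth factors, was 81.4 to 88.8 FPKM in sham and 96.2 to 109 in DMM wild-type bones, with no overlap (log2 difference 0.28, SE 0.0768, unadjusted p = 0.00245, limma adjusted p = 0.270). In DMM Pvalb cKO bones it was 93.8 to 120 FPKM, again above all sham bones (0.39, adjusted p = 0.176). Gas6, a ligand of TAM receptors, was 62.4 to 83.3 FPKM in sham and 88.5 to 103 in DMM wild-type (0.27, adjusted p = 0.769). Gas6 in the cKO bones ranged from 60.8 to 105 FPKM, from below every sham bone to above all of them (0.18 against sham, adjusted p = 0.513). Adipoq, the adiponectin gene that marks adipogenic reticular cells, was 17.6 ± 2.63 FPKM in sham and 21.2 ± 2.82 in DMM wild-type bones (0.25, adjusted p = 0.680). In the 12 libraries 13 of 14 were above 0 between DMM and sham wild-type, where 57% of all genes were, with the same median of 0.267. Among other niche cytokines 10 of 12 were above 0 (median 0.204, 0 called), with the smallest p for the Notch ligand Dll4 (0.33, adjusted p = 0.378), the growth factor Mdk (0.52) and Bmp4 (0.49, both adjusted p = 0.395). With the 12 libraries 9 of the 10 then tested were above 0 (median 0.225). The fibroblast markers, given above for Ackr3, moved the same way with a median of 1.39, and their part in these differences was not tested.

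The niche genes deviated together over the 15 libraries, though some pairs did not in sham bones alone. After subtracting each group's mean log2 level, all 21 pairs of the 7 tested genes had a positive Pearson r over the 15 libraries, with a median of 0.670 and a median Spearman rho of 0.668. With 100000 permutations of libraries within groups and adjustment over the 21 pairs, 15 pairs passed by r and 15 by rho. How many pairs of other genes would pass was not computed. Over all tested genes the median absolute r with a niche gene was 0.33 (Kitl) to 0.59 (Lepr), and the median r 0.04 (Vcam1) to 0.16 (Lepr). Among the 21 pairs Cxcl12 and Lepr had the highest r, 0.91 (rho 0.82, permutation p = 0.00322, adjusted p = 0.0119). Kitl and Ebf3 followed with 0.90 (rho 0.74, permutation p = 0.0005, adjusted p = 0.0105). Vcam1 and Foxc1 had the lowest, 0.16. In the 5 sham bones alone these pairs had r = 0.50, 0.94 and -0.86 in that order. In DMM wild-type bones r was 0.93, 0.53 and 0.90, and in cKO bones 0.94, 0.95 and 0.36. Also below 0 in sham were Kitl with Vcam1 (-0.62), Angpt1 with Foxc1 (-0.59) and Vcam1 with Ebf3 (-0.46). So were Lepr with Ebf3 (-0.31), Kitl with Lepr (-0.30) and Lepr with Angpt1 (-0.30). All other pairs were above 0 in sham, among them Kitl with Foxc1 (0.71) and Vcam1 with Angpt1 (0.72). Single groups were not tested. With the 2 libraries farthest from the median of the first gene of each pair left out the median was 0.501 and 20 of 21 were positive.

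This common movement was weaker without the libraries that stand apart. In the other 12 libraries the median r was 0.217, 16 of 21 pairs were positive and 0 passed (smallest adjusted p = 0.375). Cxcl12 with Lepr then had r = 0.35. Kitl with Ebf3 had r = 0.83 in the 12, which include sham replicate 1, low in both genes, and r = 0.68 when that library and cKO replicate 1, the 2 farthest out on Kitl, were left out of the 15. Vcam1 with Foxc1 had r = -0.51 in the 12. When the length trend of each library was removed instead, 2 pairs passed in all 15 libraries, Cxcl12 with Kitl (r = 0.79, adjusted p = 0.0181) and Kitl with Ebf3 (r = 0.89, adjusted p = 0.0270), while Cxcl12 with Lepr had r = 0.37. Many other genes moved with the same libraries. Over all tested genes the upper 5% of r began at 0.88 for Cxcl12 and 0.90 for Lepr, but at 0.57 for Kitl and 0.67 for Ebf3. It began at 0.74 for Vcam1, 0.81 for Angpt1 and 0.72 for Foxc1. The r of Kitl with Ebf3 lay above both of its bounds by more than 0.2, and that of Cxcl12 with Lepr by less than 0.05. Of the other pairs only Angpt1 with Ebf3 (r = 0.82) lay above both of its bounds. The deviations of Lepr and Cxcl12 followed the length trend with r = 0.95 and 0.91 over the 15 libraries, and those of Kitl with r = 0.39.

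**Figure D4:**
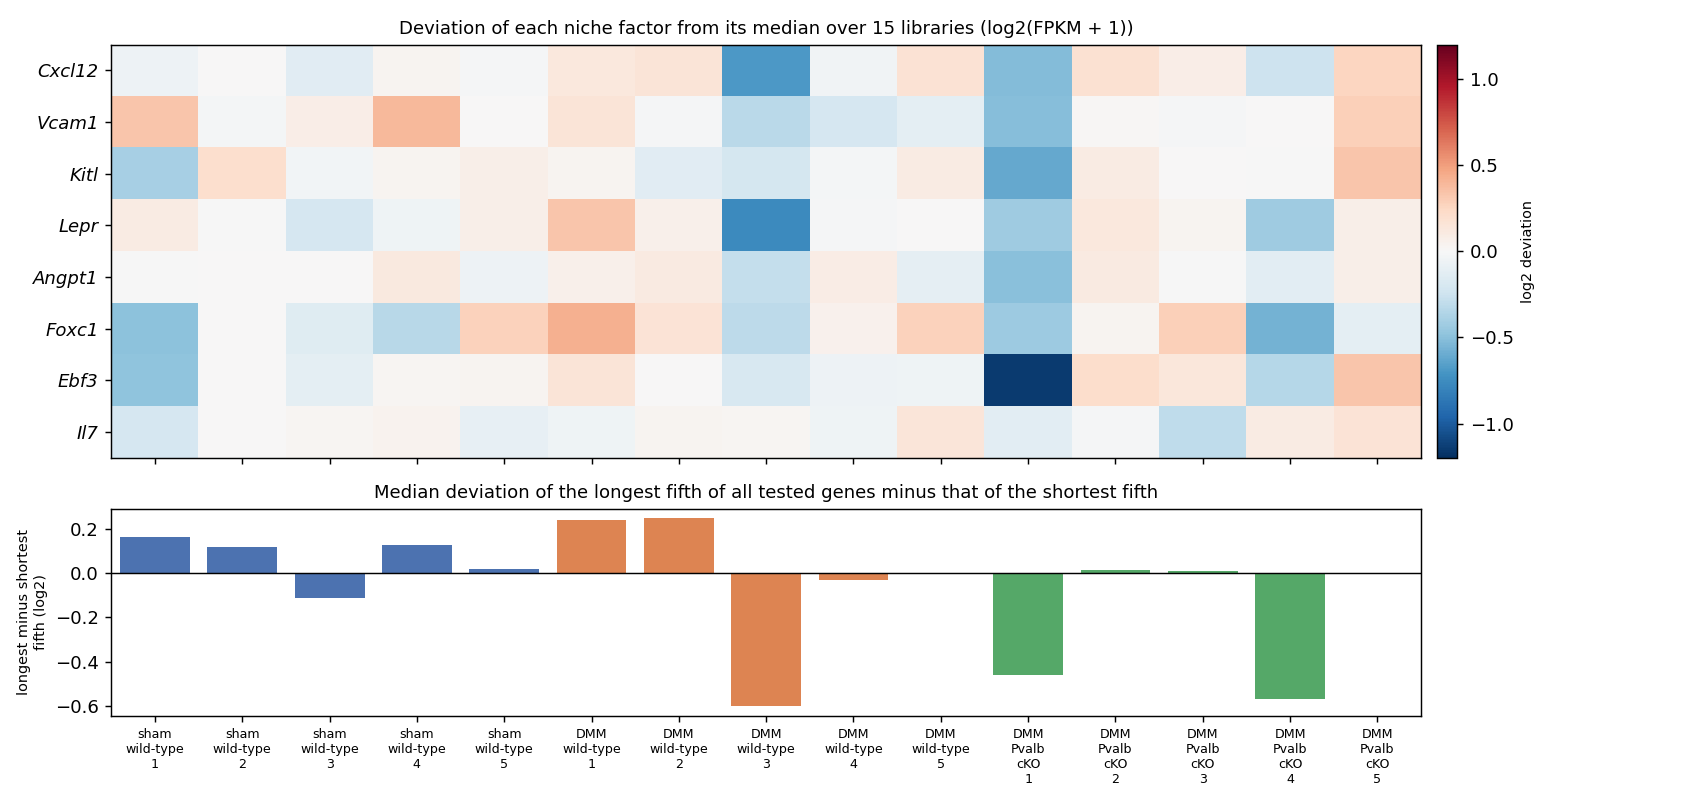
Log2 deviation of each niche gene from its median in each library (top, blue lower and red higher) above the length trend of that library, the deviation of the longest minus the shortest 20% of genes (bottom, log2). DMM wild-type replicate 3 and DMM Pvalb cKO replicates 1 and 4 are blue for most genes and have the most negative bars, at -0.60, -0.46 and -0.57.

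**Figure D5:**
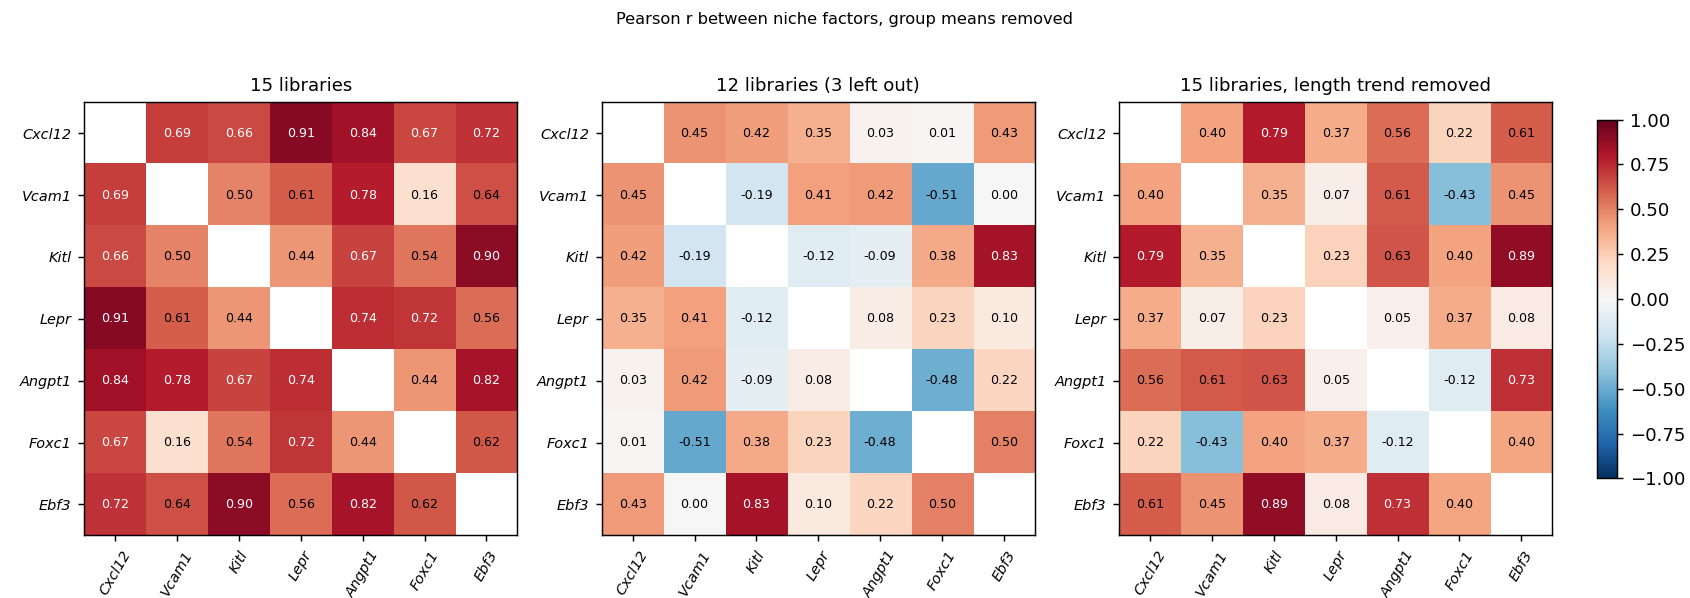
Pearson r between pairs of niche genes after removing group means, in 15 libraries (left), in 12 libraries (middle) and in 15 libraries with the length trend removed (right). The left panel is positive throughout, and Kitl with Ebf3 is at 0.90, 0.83 and 0.89 in the panels shown, beside 0.68 without the 2 libraries farthest out on Kitl, which is not drawn.

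The genes that moved most like a niche gene were taken from all tested genes by r over 15 libraries. For Cxcl12 they were Cd226 (r = 0.984), Ppp1r37 (0.976), Ciita (0.969), Ankrd26 (0.968) and Utrn (0.967), which had r of 0.553 to 0.867 in the 12 libraries. For Lepr they were Togaram1 (0.992), Bmp8a (0.975), Nedd4 (0.968), Zfp748 (0.968) and Myo19 (0.967), with 0.781 to 0.949 in the 12. For Vcam1 they were Ccdc92b (0.963), Rnf10 (0.945), Serpinb6b (0.945), Mrc1 (0.943) and Minpp1 (0.938), with 0.900 to 0.958 in the 12, so that its neighbours rested least on the 3 libraries. Mrc1 encodes the mannose receptor of macrophages.

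Several niche genes followed the markers of more than 1 cell type. For each of the 7 genes and 12 marker lists the within-group r with the mean log2 level of the list was computed. Of these 84 relations 21 passed by r (permutation, adjusted over the 84), and below, passed refers to r. All 84 were chosen after the values were seen. Fewer passed by rho. No Cxcl12 relation did (permutation adjusted p of rho 0.053 to 0.093). Nor did Kitl and Lepr with other reticular stromal markers, Vcam1 with B cell precursors, Lepr with endothelial, or Angpt1 with macrophage and erythroid markers (0.061 to 0.086). Angpt1 with megakaryocyte markers passed by rho alone (rho 0.72, adjusted p = 0.0498). Many genes moved with the same libraries, and how often other genes pass with these lists was not computed. Vcam1 followed the macrophage list with r = 0.88 (rho 0.89, permutation p = 5e-05, adjusted p = 0.0021) and the erythroid list with r = 0.90 (rho 0.91, permutation p = 3e-05, adjusted p = 0.0021). These were 0.86 and 0.82 without the 2 libraries farthest out on the list, and 0.84 and 0.82 in the 12 libraries. The B cell precursor list also passed for Vcam1 (r = 0.76, adjusted p = 0.0457, 0.34 in the 12), and its r with the other reticular stromal markers was 0.43 (adjusted p = 0.311). The macrophage list passed too for Lepr (r = 0.79, adjusted p = 0.0164), Angpt1 (0.76, adjusted p = 0.0164) and Cxcl12 (0.75, adjusted p = 0.0178), which had 0.57, 0.40 and 0.24 in the 12. The macrophage markers were mostly lower in the same comparisons as Vcam1. In DMM against sham wild-type 10 of 11 were below 0 (median -0.129), and in cKO against sham 10 of 11 (median -0.171), where Siglec1 at 1.14 to 3.07 FPKM and Cd163 at 3.21 to 6.04 lay below all sham bones at 3.63 to 6.59 and 6.15 to 9.45. In the 12 libraries 3 and 1 of 11 were above 0 (medians -0.146 and -0.143). None was called (adjusted p = 0.469 for both genes in 15 libraries), and the part of macrophages in the Vcam1 values was not tested.

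Foxc1 followed the other reticular stromal markers with r = 0.85 (rho 0.84, permutation p = 0.00068, adjusted p = 0.00952), which was 0.83 without the 2 farthest libraries and 0.78 in the 12. It followed the stem and progenitor list about as closely (r = 0.83, rho 0.84, permutation p = 0.00044, adjusted p = 0.00924), with 0.76 and 0.61 in the same subsets. Its r was 0.67 with endothelial (permutation adjusted p = 0.056), 0.66 with chondrocyte (adjusted p = 0.0508) and 0.40 with macrophage markers (adjusted p = 0.295). In the 12 its r was 0.53 with endothelial, 0.58 with chondrocyte, 0.65 with fibroblast and 0.60 with fast muscle markers. For fibroblast and fast muscle it was 0.42 and 0.29 in all 15. With B cell precursor and megakaryocyte markers the r of Foxc1 was -0.77 and -0.59 in the 12, and 0.17 and -0.10 in all 15. Angpt1 followed the B cell precursor list with r = 0.90 (rho 0.81, permutation p = 0.00035, adjusted p = 0.00924). That was 0.83 without the 2 farthest libraries and 0.68 in the 12. Cxcl12 had r = 0.79 with the other reticular stromal markers (rho 0.68, permutation p = 0.00117, adjusted p = 0.0140), but 0.59 without the 2 farthest libraries and 0.33 in the 12, so this relation rested on the libraries that stand apart. Its r with the stem and progenitor list was 0.82 (adjusted p = 0.0178), and 0.34 in the 12. Cxcl12 also passed with the erythroid (0.79), B cell precursor (0.70) and adipocyte lists (0.49), which were 0.49, 0.24 and 0.12 in the 12. Ebf3 (0.79), Kitl (0.73) and Lepr (0.72) passed with the other reticular stromal markers too, with 0.50, 0.43 and 0.28 in the 12. The rest that passed were Lepr (0.81) and Ebf3 (0.66) with stem and progenitor, Lepr with endothelial (0.52) and Angpt1 with erythroid markers (0.85). In the 12 these were 0.42, 0.18, 0.45 and 0.37 in that order. The relations of 1 gene were not tested against those of another.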

How the data were processed

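Libraries of poly(A) RNA from ground tibial subchondral bone were built by a dUTP method that marks strand, per the labels' protocols. Named in the submitters' processing notes, with no roles, are STAR 2.7.10a, featureCounts 2.0.3 of Subread, Trimmomatic 0.39, FastQC 0.11.9, R 4.3.1, DESeq2 1.42.0 and GRCm39. The authors deposited FPKM in 1 table; the sources used here do not name the tool that computed it. Columns were matched to samples by name, with 0 left unmatched, and 0 of 105 library pairs held the same values. Replicates are biological according to the labels. FPKM steps of low genes gave relative depths, but not reads per gene, so no count test was run. Of the low genes that a pair of libraries shared, 6.4% to 15.6% lay at the commonest ratio (tolerance 0.002 log2).

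Of 55335 gene IDs, 55154 had a symbol. Values were taken as log2(FPKM + 1), a scale on which differences of low genes come out too small. The 13653 genes that reached 1 FPKM in 5 or more of the 15 libraries entered a single limma 3.58.1 model (R 4.3.3) with group means and an intensity trend. A gene was called at an adjusted p under 0.05 (Benjamini-Hochberg over all of them). The script was tested on simulated data. Co-variation used residuals from group means. The members and the 15 gene lists were chosen with earlier results of these data known, and 167 of 168 list genes were found. Transcript lengths came from GENCODE M21 for 86.7% of tested genes, and promoters from RefSeq for 5 of the 8 genes, without Vcam1, Angpt1 and Il7. The length checks, the relative depths and the correlations with marker lists were chosen after the values were seen. Named genes were all members, the receptors and partners, up to 3 genes per other list with the smallest unadjusted p, and the 5 nearest genes by r of Cxcl12, Lepr and Vcam1, leaving out unnamed loci. AC117239.2 was named because it was the only gene called between cKO and wild-type after DMM. Chrdl1 and Grem1 were named as the reticular stromal markers below 0 between DMM and sham wild-type bones. Figures were drawn with matplotlib 3.10.9.

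The following settings were varied: the pseudocount (0.1), the filter (none, or 5 FPKM), scaling by median of ratios, a block for the replicate number, a model of only the 10 libraries compared, robust moderation, the fast muscle level as a covariate and array weights. Each library was left out in turn, as were the 3 that lay farthest out on principal component 1. The length trend as a covariate was added after seeing the data. Replicate numbers did not pair the samples.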

Additional observations from a re-analysis of the deposited data

Results flagged for a closer look

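Among 69 groups of 5 bones, for the niche genes and their receptors and partners, 4 held a bone whose gap to its nearest neighbour, as a part of the whole range, was over the 95% critical value of Dixon's test, and chance gives about 1 in 20. None was for a niche gene. Ackr3 was 5.96 FPKM in DMM wild-type replicate 4, with the next bone at 12.1. Itgb1, the partner chain of ITGA4, was 43.8 FPKM in DMM wild-type replicate 3, with the next at 69.2, and Jak2, a kinase downstream of cytokine and leptin receptors, was 13.8 FPKM in the same library, with the next at 20.2. That library is among the 3 that stand apart. Il2rg, the common chain of the interleukin-7 receptor, was 17.9 FPKM in DMM Pvalb cKO replicate 3, with the next at 21.0.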

How the results depend on the processing

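No niche gene was called in any comparison under any alternative, leaving out each library included. The number of genes called between DMM and sham wild-type (0) was 2 with no filter, 254 with the fast muscle covariate, 15 with array weights, 3 with the length trend covariate and 0 to 2 when each library was left out. Between cKO and wild-type after DMM (1) it was 2 with no filter, 4 with array weights, 2 with the length trend covariate and 1 to 2 without each library. Between cKO and sham (4) it was 7 with no filter, with median-of-ratios scaling, with the muscle covariate, without the 3 libraries and with the length trend covariate, 22 with array weights and 2 to 8 without each library. With the replicate block 1 gene was called there. The replicate numbers did not pair the samples: same-numbered libraries deviated together (r over 0.1) in 6 of 15 pairs, and 0 libraries correlated best with their own number. The 15 pairs of niche genes called for co-variation were 0 without the 3 libraries, 2 with the length trend removed, and 2 (without DMM Pvalb cKO replicate 1) to 17 (without sham replicate 1) without each library, with 7 without DMM wild-type replicate 3. Ackr3 between DMM and sham was called with the muscle covariate (1.10).

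Of 1077 single-gene values under alternatives, 986 kept direction and call and 90 changed sign, all for uncalled differences, and the cause was not tested. With array weights the changed log2 differences were for DMM against sham Cxcl12 0.14, Kitl 0.076 and Lepr 0.030, then for cKO against wild-type DMM Lepr 0.0053, Angpt1 0.048, Ebf3 0.21, Cxcr4 -0.11 and Tek 0.044, then for cKO against sham Cxcl12 0.19, Kitl 0.22, Lepr 0.036, Angpt1 0.020, Foxc1 0.11 and Ebf3 0.32. Without the 3 libraries the changed log2 differences were for DMM against sham Cxcl12 0.14, Kitl 0.021, Lepr 0.11, Angpt1 0.027 and Kit 0.013, then for cKO against wild-type DMM Angpt1 0.015, Ebf3 0.21, Cxcr4 -0.023 and Tek 0.024, then for cKO against sham Cxcl12 0.21, Kitl 0.17, Lepr 0.092, Angpt1 0.042, Il7 -0.0054, Foxc1 0.20 and Ebf3 0.33. With the length trend covariate the changed log2 differences were for DMM against sham Cxcl12 0.069, Kitl 0.014, Lepr 0.034 and Angpt1 0.0075, then for cKO against wild-type DMM Lepr 0.13, Angpt1 0.020, Kit 0.011, Tek 0.022 and Itga4 0.084, then for cKO against sham Cxcl12 0.24, Kitl 0.085, Lepr 0.17, Angpt1 0.028, Il7 -0.011, Foxc1 0.18 and Ebf3 0.16. With median-of-ratios scaling the changed log2 differences were for cKO against wild-type DMM Lepr 0.0055 and Tek 0.014, then for cKO against sham Cxcl12 0.023 and Kitl 0.022. With the muscle covariate the changed log2 differences were for cKO against wild-type DMM Kitl -0.011. With a pseudocount of 0.1 the changed log2 differences were for cKO against sham Il7 -0.011.

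Ranges without each library in turn were taken for the differences that changed sign under some alternative. Those that crossed 0 were, for DMM against sham, Cxcl12 -0.078 to 0.14, Kitl -0.11 to 0.037, Lepr -0.16 to 0.11, Angpt1 -0.073 to 0.027, Ebf3 -0.015 to 0.12 and Kit -0.12 to 0.013. They were, for cKO against wild-type DMM, Cxcl12 -0.15 to 0.12, Kitl -0.084 to 0.15, Lepr -0.22 to 0.055, Vcam1 -0.030 to 0.17, Angpt1 -0.13 to 0.036, Il7 -0.10 to 0.012, Ebf3 -0.26 to 0.11, Cxcr4 -0.0019 to 0.12 and Tek -0.068 to 0.039. They were, for cKO against sham, Cxcl12 -0.090 to 0.10, Kitl -0.10 to 0.13, Il7 -0.039 to 0.076, Foxc1 -0.14 to 0.079, Ebf3 -0.18 to 0.19 and Tek -0.034 to 0.15. Groups of 5 and an unknown read depth limit the precision.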
